A study of Homo sapiens with 4 samples.

Results

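The cytosolic ribosomal protein genes encode the proteins of the large (60S) and small (40S) subunits of the ribosome outside mitochondria. Members were the genes whose single-gene probe sets carry an RPL or RPS symbol, the stalk proteins RPLP1 and RPLP2 included, and 60 of the 19775 genes with such a probe set qualified, 39 of the large and 21 of the small subunit. S6 kinases, pseudogenes, antisense genes and RPS4Y1 were left out. A further 15 ribosomal protein genes, RPLP0, RPSA, RPL5, RPL10 and RPL26 among them, had only probe sets annotated to several genes and were not analysed here.

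RNA came from MDA-MB-361, an established ERBB2-amplified luminal breast cancer line, and was hybridized to 4 Affymetrix U133 Plus 2.0 arrays. All 4 lines carried the lentiviral vector pLKO. In 3 of them, named shDCD clone 1, clone 2 and clone 3 by the labels, it expressed a short hairpin RNA (shRNA) aimed at a different region of the DCD transcript, and the pLKO line carried the control vector. DCD encodes dermcidin, a secreted peptide precursor, and the question of the array experiment was which transcripts change when it is knocked down. There was 1 array per line. The control therefore had no replicate, it is shared by all 3 comparisons, and the spread between the shDCD arrays mixes hairpin, clone and technical variation.

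A ribosome reads mRNA on its small subunit and joins amino acids on its large subunit, and each subunit is a core of ribosomal RNA dressed with many small, mostly basic proteins. Most of these proteins are needed in equal numbers, and their genes are transcribed strongly in dividing cells. Their mRNAs usually start with a C followed by a run of C and T (the terminal oligopyrimidine or TOP tract), through which the kinase mTORC1 and the RNA-binding protein LARP1 control their translation together.

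The starts of 10 members are shown because the results below turn on them: 4 genes low on every shDCD array or with the widest spread (RPL34, RPS21, RPS25, RPS12), a pair that was high in clone 3 (RPS6, RPL24), and RPS27 and its paralog RPS27L beside the pair that was high on every shDCD array (RPS15, RPL7L1). Each line gives 15 bases before and 15 from the annotated transcription start (RefSeq, GRCh38.p14, transcribed strand), and capitals mark the unbroken run of C and T that begins at the start base when that base is C.
RPL34, chr4:108620561-108620590 (+): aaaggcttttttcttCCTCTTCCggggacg
RPS21, chr20:62387088-62387117 (+): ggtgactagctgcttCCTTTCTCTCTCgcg
RPS25, chr11:119018329-119018358 (-): tctgagcagcgcttcCTTTTTgtccgacat
RPS12, chr6:132814554-132814583 (+): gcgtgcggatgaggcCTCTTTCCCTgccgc
RPS6, chr9:19380222-19380251 (-): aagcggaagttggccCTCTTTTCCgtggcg
RPL24, chr3:101686704-101686733 (-): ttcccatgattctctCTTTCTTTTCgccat
RPS27, chr1:153990747-153990776 (+): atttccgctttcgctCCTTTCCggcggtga
RPS15, chr19:1438381-1438410 (+): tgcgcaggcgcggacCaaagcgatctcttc
RPL7L1, chr6:42879601-42879630 (+): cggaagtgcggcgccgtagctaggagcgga
RPS27L, chr15:63157463-63157492 (-): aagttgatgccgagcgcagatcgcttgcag
The first 7 start with a C and a pyrimidine run of 6 to 12 bases, RPS15 with a lone C, and neither paralog with a C. Of RPL34 and its 2 annotated starts, the one with the longest run is shown.

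The arrays differed in quality and scale. Median deposited intensity ran from 13.4 in clone 3 to 24.7 in clone 2, and 55.1% of probe sets lay under an intensity of 16 in clone 3 against 39.3% to 43.9% on the other arrays, so low signals are least precise in clone 3. Control probe sets at the 3' end of ACTB were brighter than those at its 5' end, a difference that grows when RNA is broken or incompletely copied, by 9.67-fold in clone 1, 2.58-fold in clone 2, 42.6-fold in clone 3 and 5.29-fold in pLKO. For GAPDH the 3' signal was 2.18-fold higher in clone 1, 1.02-fold in clone 2, 13.1-fold in clone 3 and 1.09-fold in pLKO. Clone 3 thus stood apart, and counts over the 3 shDCD arrays on the normalized scale are followed by those over clones 1 and 2 alone. The single DCD probe set read 7 in clone 1, 6 in clone 2, 2.7 in clone 3 and 2 in pLKO. It was under 16 on every array, the control included, and too dim to check the knockdown. All 9 luminal markers passed the filter on low values. After normalization their median log2 differences from pLKO were 0.34, 0.58 and −1.15 in clones 1, 2 and 3. On all 3 shDCD arrays 4 of them were higher and 0 lower, against 19.4% and 20.0% of all probe sets that passed. GATA3 was 2.60- to 7.32-fold higher. Of 12 markers of fibroblasts, endothelium, leukocytes and smooth muscle with a probe set, 5 passed. COL1A1 read between 199.9 and 254 and PECAM1 between 19.3 and 74.9, while CDH5 and CD14 were under 16 on every array. After normalization DCN was 1.71- to 2.33-fold higher and COL1A2 1.34- to 2.44-fold higher on all 3 shDCD arrays. ACTA2 was 1.66- to 3.57-fold lower, and PECAM1 was lower as well. These are dim readings. DCN read 5.8 in pLKO, under the floor of 16, and COL1A2 read 26.2 in clone 3 against 27.3 in pLKO before normalization. MYH11 did not pass and was under 16 on every shDCD array (27.1 in pLKO), so its lower value is set by the floor. The summed intensity of the 12 ran from 317 in clone 3 to 568 in clone 2 (467 in pLKO), and their part in the results was not tested. In these bulk samples, fewer cells of a kind and less RNA per cell cannot be told apart.

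Relative to all other transcripts, ribosomal protein mRNAs tended to be slightly lower with each DCD shRNA. The log2 values of the deposited intensities were quantile normalized, those under log2 of 16 were set to it, and each gene was read from its probe set with the highest mean. In clone 1, 43 of 60 members were lower than in pLKO (49.0% of all 27307 tested probe sets) and 13 were higher (49.2%). In clone 2, 49 were lower (47.7% of all tested probe sets) and 8 higher (49.8%). In clone 3, 38 were lower (50.1%) and 19 higher (49.1%). The median log2 difference over the members was −0.33 in clone 1, −0.27 in clone 2 and −0.22 in clone 3, which is 1.26-, 1.21- and 1.16-fold lower, while the median of all tested probe sets was 0.00 on each array. Among the 2731 tested probe sets with the highest mean signal the medians were 0.07, 0.02 and −0.21, so in clone 3 the member median nearly coincided with that of other strong signals.

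The differences were small. At least 1.5-fold lower were 20 members in clone 1 (22.1% of all tested probe sets), 10 in clone 2 (13.1%) and 27 in clone 3 (32.4%), and at least 1.5-fold higher were 0, 0 and 6 (20.6%, 12.7% and 30.9%). Members also varied less among themselves than probe sets at large. The SD of the log2 difference over members was 0.46, 0.30 and 0.98 in clones 1, 2 and 3, against 0.77, 0.58 and 1.23 over all tested probe sets. In words, the group lay in a narrow band just under the control in clones 1 and 2 and was spread widely to both sides in clone 3.

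**Figure D1:**
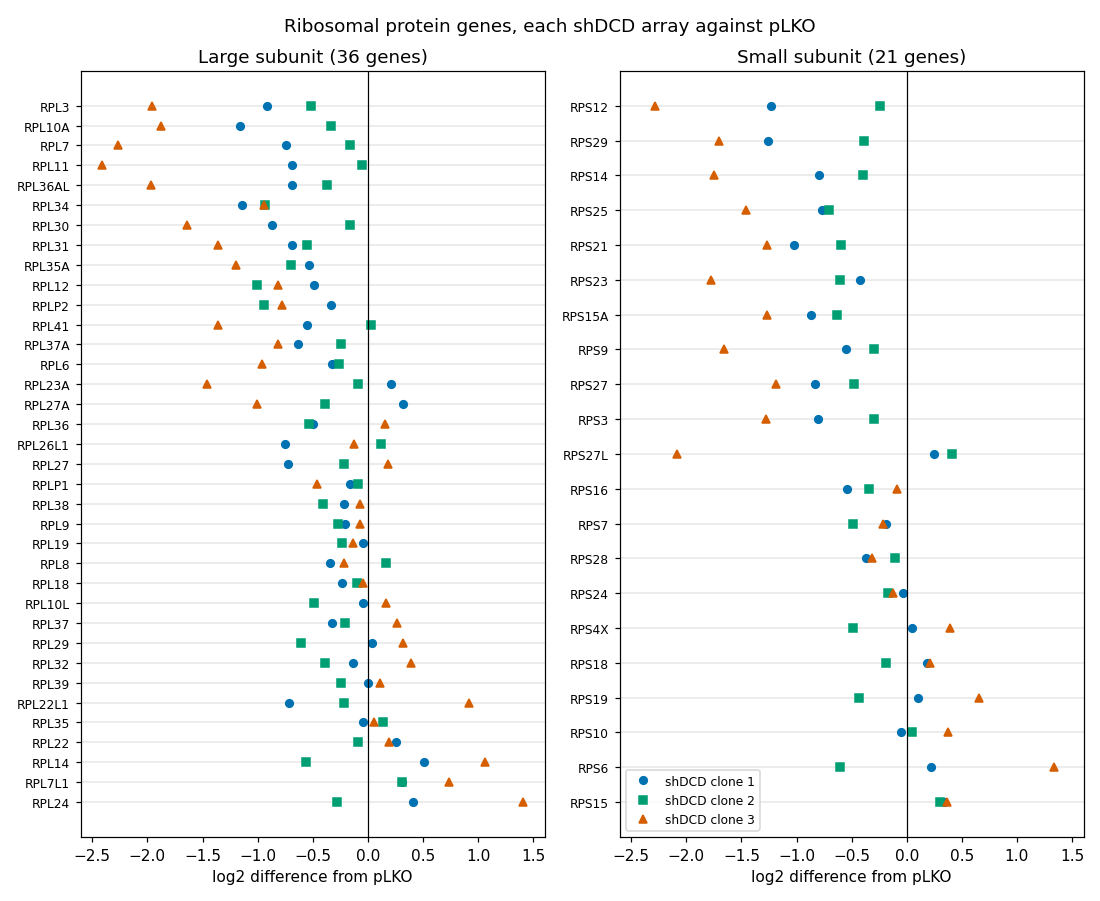
Each row is a ribosomal protein gene that passed the filter on low values (36 of the large and 21 of the small subunit), ordered by the mean of its 3 comparisons, and each point is the log2 difference of 1 shDCD array from the pLKO array. Over all genes clone 2 points spread least, though in some rows (RPL12 for one) they lie farthest from 0. Clone 3 points spread from −2.41 (RPL11) to 1.41 (RPL24).

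By limma, fitted across all tested probe sets with the lone pLKO array assumed to vary like the shDCD arrays, 0 of 27307 probe sets and 0 of 57 tested members passed a Benjamini-Hochberg adjusted p of 0.05. At an unadjusted p under 0.05 there were 125 lower and 81 higher probe sets, and 0 members. RPL34 had the smallest member p in limma, 0.157 (adjusted p = 0.9998). An exact permutation test of 3 arrays against 1 cannot go below p = 0.25, so the counts that follow are descriptions. The other 3 of the 60 members, RPL36A and the paralogs RPL3L and RPL39L, were under 16 on every array and count in no direction. Each was read from its only single-gene probe set, so a low reading does not show that the gene is silent. Their differences of 0 stay in the medians over all members and over the large subunit.

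A shared direction was more common among members than among probe sets at large. Lower on all 3 shDCD arrays were 32 of 60 members (53.3%; 18 large and 14 small subunit), against 20.0% of all tested probe sets and 21.9% of the 2731 with the highest signal. Higher on all 3 were 2 members, RPS15 and RPL7L1, against 19.4%. The other 23 measured members went both ways. Without clone 3, 38 members were lower and 3 higher on both remaining arrays, against 30.1% and 29.9% of all tested probe sets. The same pLKO array enters every comparison, so the 3 comparisons are not independent.

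With a threshold of 1.5-fold the count was 4 members lower on all 3 arrays (6.67%), RPL34, RPS15A, RPS21 and RPS25, against 3.03% of all tested probe sets, and 0 higher, against 3.04%. It stayed at 4 without clone 3 (6.09% of all tested probe sets) but was 8 without clone 1 (5.58%) and 17 without clone 2 (13.1%). By a rule of at least 3-fold in each comparison, 0 members were lower (0.179%) and 0 higher (0.0366%).

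RPL34, a large subunit protein, varied least between the shDCD arrays among these 4 genes. Its deposited intensity was 1452 in clone 1, 3538 in clone 2, 943 in clone 3 and 5581 in pLKO. All 3 shDCD arrays lay below pLKO and none overlapped it. On the normalized scale it was 2.21-, 1.91- and 1.92-fold lower in clones 1, 2 and 3, a mean log2 difference of −1.00 ± 0.12 (SD, n = 3 shDCD arrays).

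RPS21, a small subunit protein that takes part in the late processing of 18S rRNA, read 4177 in clone 1, 8883 in clone 2, 2002 in clone 3 and 11356 in pLKO. Again pLKO was the highest array. The normalized log2 difference was −0.96 ± 0.34 (SD, n = 3), from −0.60 in clone 2 to −1.26 in clone 3.

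RPS25, a head protein needed for initiation at several viral internal ribosome entry sites, read 894.5 in clone 1, 2080 in clone 2, 329 in clone 3 and 2685 in pLKO. Its log2 differences were −0.77, −0.71 and −1.45. The pattern matched that of RPS21, with clone 3 the lowest array and clone 2 the nearest to pLKO.

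RPS15A, of the small subunit body, read 2010 in clone 1, 4557 in clone 2, 823 in clone 3 and 6349 in pLKO, a log2 difference of −0.92 ± 0.32 (SD, n = 3). This value rests on the choice of probe set, since the mean of its 3 probe sets gave −0.26. RPS21 likewise moved to −0.46 with the mean of its probe sets, while RPL34 and RPS25 have 1 probe set each. RPL31, at the mouth of the peptide exit tunnel, and RPL35A, mutated in some patients with Diamond-Blackfan anaemia (an inherited failure of red cell production), came next when genes are ordered by the smallest of their 3 differences, with means of −0.87 ± 0.43 and −0.81 ± 0.34 (SD, n = 3). The mean for RPL31 was −0.44 over its probe sets and −0.19 without those marked _x_at (possible cross-hybridization), and its dimmer probe sets were higher than pLKO in clone 3, at 0.13 and 0.86.

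RPS15, a head protein close to the decoding site, went the other way. Its intensity was 5171 in clone 1, 8190 in clone 2, 3097 in clone 3 and 6781 in pLKO. Only clone 2 was above pLKO before normalization. After it, the log2 differences were 0.34, 0.31 and 0.36, a mean of 0.34 ± 0.03 (SD, n = 3), which turned to −0.42 with values as deposited and −0.28 with median centring. RPL7L1, an RPL7-like protein related to a yeast factor for rRNA maturation, read 377 in clone 1, 828 in clone 2, 302 in clone 3 and 486 in pLKO. Its mean log2 difference was 0.45 ± 0.25 (SD, n = 3) and became −0.09 with values as deposited and 0.04 with median centring. Neither gene can therefore be called higher on a scale of absolute signal.

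**Figure D2:**
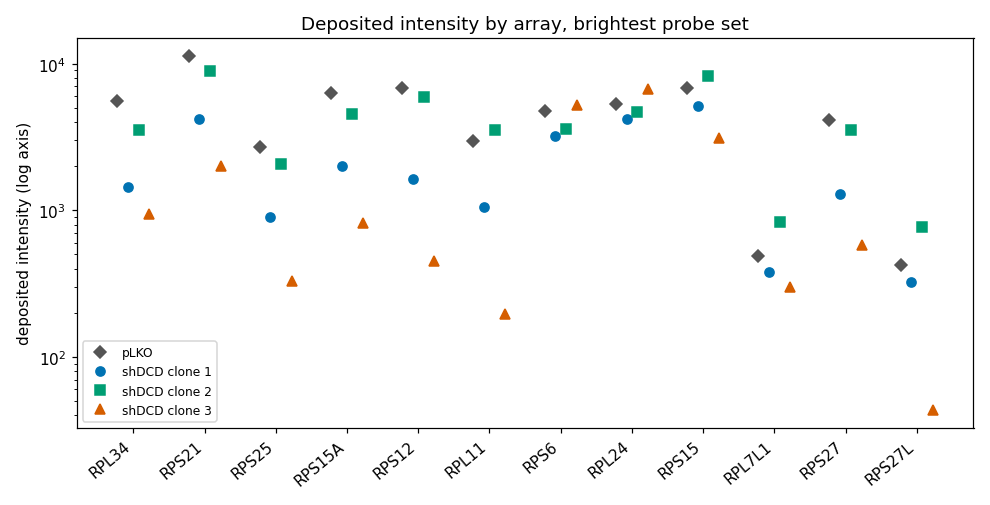
Deposited intensity (log axis, not normalized between arrays) of 12 members on each of the 4 arrays, 1 point per array, from the probe set with the highest mean. pLKO is the highest array for RPL34, RPS21, RPS25, RPS15A, RPS12 and RPS27, whereas clone 3 is the highest for RPS6 and RPL24 and by far the lowest for RPS27L (43.5).

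The widest ranges over the shDCD arrays came from low values in clone 3. RPL11, which binds 5S rRNA and can hold the p53 regulator MDM2, read 1052 in clone 1, 3547 in clone 2, 196 in clone 3 and 2970 in pLKO. Clone 2 was above pLKO before normalization. The normalized log2 difference was −0.05 in clone 2 but −2.41 in clone 3, a 5.33-fold lower value. RPS12, a protein of the small subunit head, read 1632 in clone 1, 5929 in clone 2, 449 in clone 3 and 6806 in pLKO. It was 2.35-fold lower in clone 1, 1.18-fold lower in clone 2 and 4.89-fold lower in clone 3. RPL7, of the large subunit, followed the same order, with log2 differences of −0.74, −0.16 and −2.26. For all 3 genes clone 2 was within 1.2-fold of pLKO and clone 3 lay far below it.

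RPS6, the small subunit protein phosphorylated by the S6 kinases downstream of mTORC1, ran against that. It read 3212 in clone 1, 3594 in clone 2, 5201 in clone 3 and 4755 in pLKO. The log2 differences were 0.22, −0.61 and 1.33, so the 3 lines disagreed in sign. RPL24, which forms part of a bridge between the subunits, had log2 differences of 0.41, −0.28 and 1.41, with intensities of 4165 in clone 1, 4671 in clone 2, 6747 in clone 3 and 5269 in pLKO. By the strongest probe set of both genes, clone 3 exceeded pLKO on the deposited scale too, whereas clone 1 was above pLKO only after normalization. Other probe sets were lower in clone 3 on that scale. The second of RPL24 read 1965.5 in clone 3 and 3745.9 in pLKO. Dimmer ones of RPS6 read 2654.6 and 1255.6 in clone 3, against 4711.4 and 2186.5 in pLKO. With RPL14, RPL22, RPL29, RPS18, RPS19 and RPS4X, RPS6 and RPL24 made up the 8 members that were higher in clones 1 and 3 and lower in clone 2. Higher in clones 1 and 3, whatever clone 2 did, were 10 members and 31.7% of all tested probe sets. Higher on all 3 arrays were 2 members and 19.4%. The share of probe sets with the exact pattern was not computed, so the 8 are not set apart as a group. RPS19, the first gene linked to Diamond-Blackfan anaemia, had log2 differences of 0.10, −0.44 and 0.66.

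The subunits differed mainly in clone 3. The median log2 difference of large subunit genes was −0.32 in clone 1, −0.24 in clone 2 and −0.13 in clone 3, and that of small subunit genes was −0.42, −0.39 and −1.18. Large minus small, the gap was 0.10, 0.14 and 1.05. The last value depends on which probe set stands for a gene. It was 0.15 when the probe sets of each gene were averaged and 0.41 without the paralogs, 7 of which count to the large subunit, but 1.21 without probe sets marked _x_at by the manufacturer for possible cross-hybridization. In clone 3, 11 of 21 small and 16 of 39 large subunit genes were at least 1.5-fold lower.

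**Figure D3:**
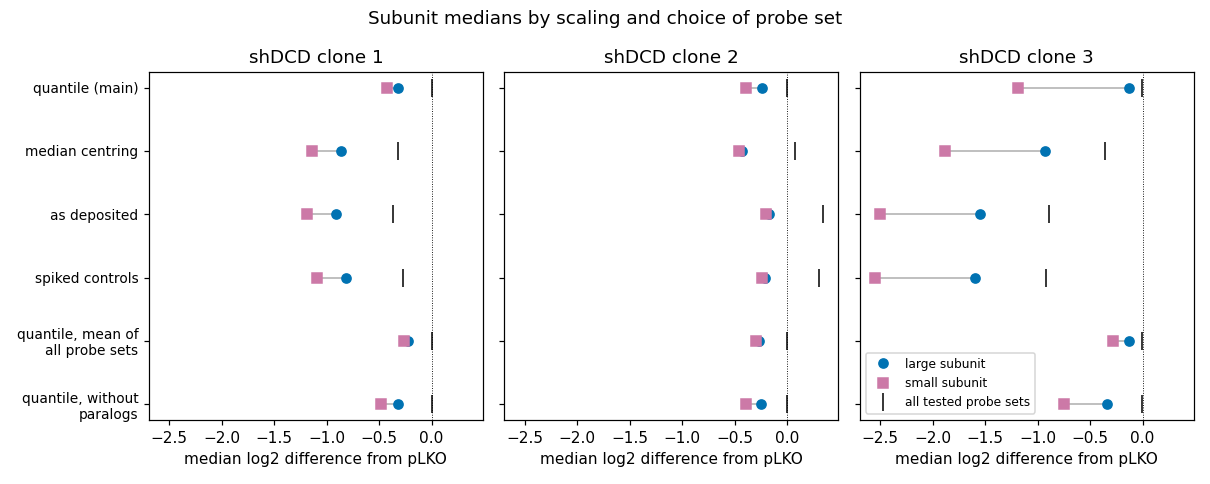
Median log2 difference from pLKO of large (circles) and small (squares) subunit genes in each shDCD clone under 6 settings, 1 per row, with a vertical bar at the median of all tested probe sets. The squares lie left of the circles in every row and panel, and the gap of 1.05 in clone 3 shrinks to 0.15 when all probe sets of a gene are averaged.

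Probe sets of one gene often disagreed on the arrays with high 3' to 5' ratios. For the 17 members with at least 2 tested probe sets of mean log2 signal of 8 or more, the median range between probe sets of a gene was 0.51 in clone 1, 0.07 in clone 2 and 0.98 in clone 3. The SD over the 57 tested members, each by its strongest probe set, was 0.46, 0.30 and 1.00. A range within 17 genes and an SD over 57 are unlike measures, so their sizes are not compared. The choice of probe set moved a gene by more in clones 1 and 3 than in clone 2. Probe sets differed in sign in 9 genes in clone 1, 1 in clone 2 and 8 in clone 3.

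RPS9, which lines the mRNA entry, ran from −1.66 to 0.81 between its probe sets in clone 3, and RPL37A, a zinc-binding large subunit protein, from −0.81 to 1.63. RPS7, of the small subunit body, was lower by both probe sets but ran from −2.16 to −0.22. By contrast, both probe sets of RPS19 were higher in clone 3 (0.66 and 0.79), and both of RPL10A were lower (−1.88 and −1.67). On the normalized scale the direction of RPS6 (0.72 to 1.33 in clone 3) and RPL24 (0.60 to 1.41) did not depend on the strong probe set chosen. On the deposited scale it did, as given above. Whether RNA integrity accounts for the disagreement was not tested.

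**Figure D4:**
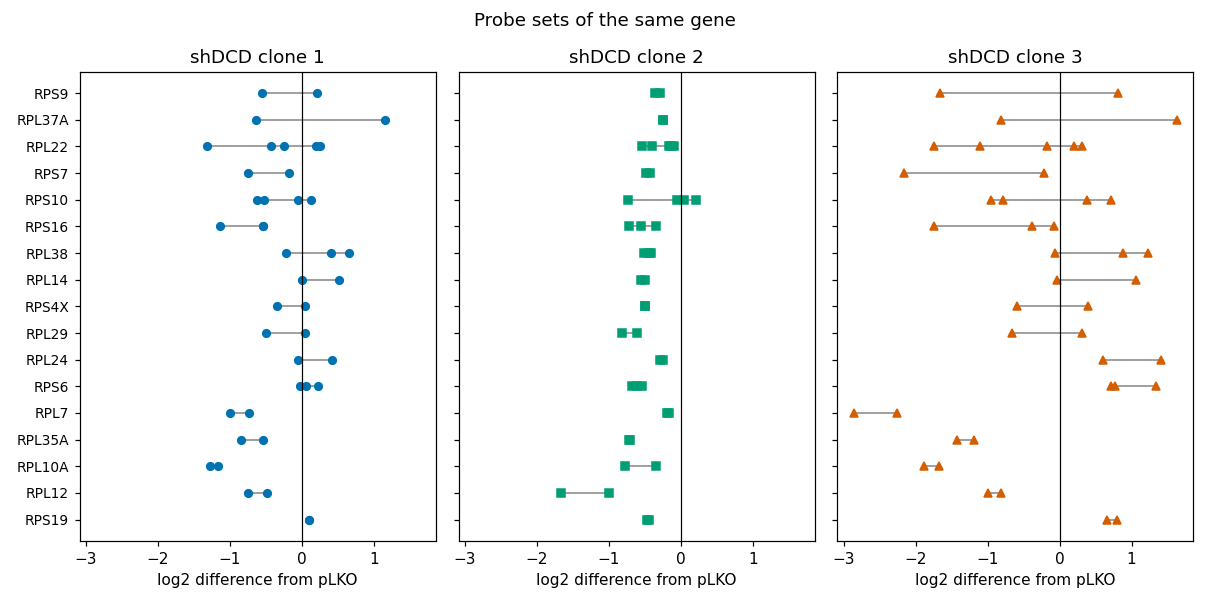
Each row is 1 of the 17 members with several strong probe sets, each point is a probe set (log2 difference from pLKO), and lines join the probe sets of a gene, in a panel per shDCD clone. Ranges are short in clone 2 (median 0.07) and long in clone 3 (median 0.98), where RPS9 and RPL37A cross 0.

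By place in the ribosome, the stalk, which recruits translation factors to the large subunit, was lower throughout in the 3 of 4 genes measured. RPLP1 had log2 differences of −0.16, −0.09 and −0.46. RPL12, at the base of the stalk, had −0.49, −1.00 and −0.81, and its second probe set was lower too on every array. RPLP2 had −0.34, −0.94 and −0.78 from a dim probe set (36 to 129). Along the mRNA channel of the small subunit, 4 of 8 genes were measured, RPS3, RPS9, RPS14 and RPS28. By their strongest probe sets all were lower on every array, with medians of −0.67, −0.29 and −1.47. The deposited intensity of RPS9 in clone 2 (2193.5) was nevertheless above that in pLKO (2086). Its second strong probe set was higher in clone 1 (0.21) and clone 3 (0.81) and lower in clone 2 (−0.35). RPS14, whose loss underlies the anaemia of 5q− syndrome, contributed −0.79, −0.40 and −1.75.

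The small subunit head was mixed: of 10 measured genes (14 listed), 6 were lower on all 3 arrays and RPS15 was higher. At the exit tunnel, 2 of 5 measured genes (7 listed), RPL19 and RPL31, were lower on every array, with list medians of −0.04, −0.23 and −0.13. Of 6 measured genes (11 listed) mutated in Diamond-Blackfan anaemia, 4 were lower on all arrays: RPL11, RPL35A, RPS7 and RPS24. Over clones 1 and 2 alone the counts of the stalk, channel, head, tunnel and anaemia lists were the same. For comparison, 20.0% of all tested probe sets were lower and 19.4% higher on all 3 arrays, and 30.1% and 29.9% on clones 1 and 2. In none of these lists did limma call a gene.

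Most paralogs, copies named after another ribosomal protein gene and often restricted to some tissues, were dim. RPL3L, the striated muscle form of RPL3, and RPL39L were under 16 on every array, and RPL10L, known from testis, read between 38.4 and 69.3. RPL22L1, the like copy of RPL22, had log2 differences of −0.72, −0.22 and 0.92, while RPL22 itself had 0.26, −0.09 and 0.19 by its strongest probe set, a mean of 0.12 that turned to −0.36 over all its probe sets. RPL26L1 had −0.75, 0.12 and −0.13. RPL36AL was the paralog lower on all arrays, at −0.69, −0.37 and −1.97. Over clones 1 and 2 alone 3 paralogs were lower and 2 higher, against 30.1% and 29.9% of all tested probe sets.

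RPS27L, a p53-inducible copy of RPS27, had the widest range of any member. It read 323 in clone 1, 769 in clone 2, 43.5 in clone 3 and 421 in pLKO. The log2 differences were 0.25, 0.41 and −2.09, so it was modestly above pLKO in both other lines and 4.24-fold lower in clone 3. RPS27 was lower in all 3, by log2 differences of −0.84, −0.48 and −1.18, from intensities of 1287.5 in clone 1, 3529 in clone 2, 577 in clone 3 and 4117 in pLKO. The mean for RPS27 turned from −0.83 to 0.07 when its second, dim probe set was averaged in. In clones 1 and 2 the copies lay on opposite sides of pLKO on the normalized scale by their strongest probe sets.

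Of the 4 members with the highest mean signal, RPL37A differed most from pLKO. RPL38, a small zipper-like protein at the edge of the large subunit, had log2 differences of −0.22, −0.41 and −0.07 by its strongest probe set. Its other probe sets were higher in clone 1 (0.66 and 0.40) and clone 3 (1.22 and 0.89), so that its mean of −0.23 turned to 0.17 over all its probe sets. RPS24 had −0.04, −0.17 and −0.13, and RPS10 had −0.05, 0.05 and 0.37, whose mean of 0.12 turned to −0.19 over all its probe sets. RPL37A had −0.64, −0.24 and −0.81 by its strongest probe set, a mean of −0.56 that turned to 0.85 with its other strong one. RPL3, which reaches toward the peptidyl transferase centre, was lower on each array at −0.92, −0.51 and −1.95.

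The scale of the arrays sets how low the group appears. With values as deposited the member medians were −1.04, −0.18 and −1.71 in clones 1, 2 and 3, where the median of all tested probe sets itself shifted to −0.36, 0.34 and −0.89. Centring each array on its median gave −1.00, −0.44 and −1.09, beside −0.32, 0.08 and −0.35 for all tested probe sets. Scaling to the spiked hybridization controls gave −0.95, −0.21 and −1.76, beside −0.28, 0.30 and −0.92. Under each of these the members' median was below that of all tested probe sets on every array. Lower on all 3 arrays were 41 members with values as deposited (19.4% of tested probe sets), 48 with median centring (24.6%) and 42 with the spiked controls (20.1%). Higher on all 3 were 0 members in each, against 10.3%, 14.0% and 10.3% of tested probe sets.

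The annotation left further ribosomal probe sets aside. Of 65 probe sets annotated to a ribosomal protein gene and others, 49 were shared only with small RNA genes, with 17 ribosomal protein genes involved, and 46 were tested. Their median log2 differences were −0.27, −0.37 and −0.74. On all 3 arrays 29 were lower and 0 higher, against 20.0% and 19.4% of all tested probe sets. Over clones 1 and 2 alone 34 were lower and 1 higher, against 30.1% and 29.9%. They are not attributed to named genes here.

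Members shared features at their starts that the choice of symbols did not use. RefSeq starts were at hand for 52 of the 60 members, 60 starts in all, and 35 of these (58.3%) had a C followed by at least 4 C or T, against 4.07% of 35116 starts. The motif CCGGAAG, read on both strands of 300 bases around the start, was in 38.3% of member windows and 10.3% of all. ATGGCGG was in 13.3% and 5.55%, and TATAAA in 8.33% and 11.5%. The letters of different motifs were counted separately, and a match is not a site.

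Of 34 tested members with a TOP-like start, 20 were lower and 0 higher on all 3 arrays, with medians of −0.45, −0.37 and −0.62. Of 17 without one, 9 were lower and 2 higher, with medians of −0.21, −0.27 and −0.13. Over clones 1 and 2 alone, 22 with the tract were lower and 0 higher, and 12 without it were lower and 3 higher. Of all tested probe sets, 20.0% were lower and 19.4% higher on all 3 arrays, and 30.1% and 29.9% on clones 1 and 2. As a share of each group, the lower counts with and without the tract were close, and no test compared them. Genes with a tract lay on both sides of pLKO: RPS6 and RPL24 carry runs of 9 and 10 bases and were higher in clone 3, whereas RPS12 has a run of 10 and was 4.89-fold lower there. Neither member that was higher on all arrays has such a run at its annotated start base, as shown above. Only runs from that base were counted, and the RPS15 window has a stretch of C and T further on. A gene without a run here may therefore still carry a tract from another start.

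Other lists of genes tied to translation had no direction in common, though further TOP transcripts leaned the same way as the members. Of 10 measured mRNAs known to carry a TOP tract (11 listed), 5 were lower and 0 higher on all 3 arrays, with medians of −0.21, −0.32 and −0.36. NAP1L1, a histone chaperone, was the one at least 1.5-fold lower on each, at −0.82, −0.85 and −1.37. Of 5 measured elongation factors (7 listed), EEF1A1 and EEF2 were lower and EEF1D and EIF5A higher on all 3. Among 27 initiation factors, 10 were lower and 4 higher, with medians of −0.40, −0.05 and −0.45. Over clones 1 and 2 alone, 8 TOP transcripts were lower, GAS5 with its values near the floor among them, and 0 higher. In the same way 2 elongation factors were lower and 3 higher, and 13 initiation factors lower and 5 higher. The shares of all tested probe sets were 20.0% lower and 19.4% higher on all 3 arrays, and 30.1% and 29.9% on clones 1 and 2.

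Nucleolar factors that build ribosomes lay around the control, with medians of 0.01, −0.11 and 0.40 over 22 genes, 3 lower and 1 higher on all arrays. Regulators between mTORC1 and the ribosome had medians of 0.01, 0.00 and −0.10 over 12 genes, 4 lower and 4 higher. Over clones 1 and 2 alone these counts were 5 and 2 for the nucleolar factors and 5 and 5 for the regulators. All tested probe sets gave 20.0% lower and 19.4% higher on all arrays, and 30.1% and 29.9% on clones 1 and 2. Of the regulators, AKT1S1, an inhibitory partner of mTORC1, was at least 1.5-fold higher on every array, and EIF4EBP1, a repressor of cap-dependent initiation, had log2 differences of −1.27, −1.77 and −0.19. FAU, whose product gives the small subunit protein eS30 after cleavage from a ubiquitin-like part, was higher at 0.29, 0.23 and 1.23. On the deposited scale none of EEF1D, EIF5A, AKT1S1 and FAU was above pLKO on every array, since at least 1 of the 3 shDCD intensities lay below it. limma called 0 genes in each list.

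**Figure D5:**
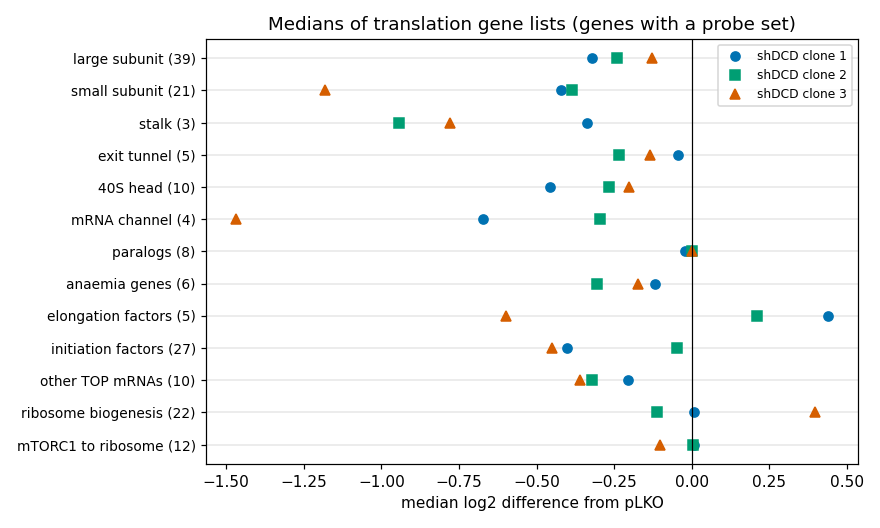
Median log2 difference from pLKO of each list of translation genes with at least 3 genes measured (number of genes with a probe set in brackets), 1 point per shDCD clone. Of these lists, the mRNA channel genes and the small subunit lie lowest in clone 3 (−1.47 and −1.18), while ribosome biogenesis genes have a median of 0.40 there.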

How the data were processed

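RNA of MDA-MB-361 cells was measured on 4 arrays, grouped by the sample labels into shDCD (3, clones 1 to 3) and pLKO (1). The authors deposited 1 linear intensity per probe set and array. Their methods name dChip. Which program made the deposited values, and with what scaling, is not given here. Array medians differed more than the spiked controls, so values were taken as not normalized between arrays.

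Intensities of 0 were set to 0.1, log2 was taken, arrays were quantile normalized on the log2 scale, and values under log2 of 16 were set to it. After leaving out 62 of 54675 probe sets as controls, the 27307 at or above the median mean (log2 4.39) were tested. The platform annotation gave 41097 probe sets 1 gene, 1801 several and 11777 none, and 41043 symbols were matched by gene identifier to a GRCh38.p14 table, used for names. A gene took its single-gene probe set with the highest mean. Of 121 member probe sets, 106 passed the filter, and 57 of 60 members.

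Each shDCD array was compared with pLKO as a value with no test, and shDCD was tested against pLKO on the log2 scale with limma 3.58.1 in R 4.3.3, with Benjamini-Hochberg adjustment and 2 residual degrees of freedom. On simulated data of 27307 probe sets with the arrays' own spread, limma recovered 0.0% of 2-fold, 4.5% of 4-fold and 88.5% of 16-fold changes. The number of arrays limits the precision.

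Named members were the 6 lower and up to 6 higher genes with the largest smallest change in all 3 comparisons (2 were higher), the 4 of widest range, the 4 brightest and 4 dimmest, the stalk, 5S-binding and paralog lists with the genes they are named after, and RPS6, RPSA, RPS19 and RPL3. A planned ranking of members most like RPLP0 was not made, since RPLP0 was not analysed. RPL14, RPL29, RPS4X, RPS18 and the genes named for their place, their probe sets or in the other lists were chosen after their values were seen where the rule did not name them. Members and lists were chosen with earlier results of these data known.

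Alternatives were other scalings, floors of 1 and 64, other choices of probe set, members without paralogs, each shDCD array left out, and other settings of limma. Scaling to the spiked controls, leaving out _x_at probe sets, the dimmest strong probe set and the probe sets shared with small RNA genes were added after seeing the data. Figures were drawn with matplotlib 3.10.9.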

Additional observations from a re-analysis of the deposited data

Results flagged for a closer look

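The control probe sets, which enter no comparison of members, were above the pLKO level on 2 arrays. The 3' to 5' ratio for ACTB was 9.67 in clone 1 and 42.6 in clone 3, against 5.29 in pLKO. That of GAPDH was 2.18 in clone 1 and 13.1 in clone 3, against 1.09 in pLKO. In clone 2 both lay below pLKO, at 2.58 and 1.02. These are the arrays on which probe sets of 1 ribosomal protein gene differed most from each other (median range 0.51 in clone 1 and 0.98 in clone 3, against 0.07 in clone 2). The part of RNA integrity in the member values was not tested.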

How the results depend on the processing

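The mean over arrays of the members' median log2 difference was −0.28. It was −0.98 with values as deposited, −0.84 with median centring, −0.97 with the spiked controls, −0.34 without paralogs, −0.40 with the dimmest strong probe set of each gene and −0.40 with the probe sets shared with small RNA genes added, and it stayed negative under every alternative run. Leaving out 1 shDCD array gave −0.30 to −0.25, and large minus small subunit (mean over arrays 0.43) then ran from 0.12 to 0.60.

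Members lower on all arrays (32) ran from 34 to 38 when 1 array was left out (34 without clone 1 and 35 without clone 2, against 26.9% and 33.3% of tested probe sets). Those higher on all (2) became 0 as deposited, with median centring and with the spiked controls, 1 without paralogs and 1 without _x_at probe sets, and 3 to 10 with 1 array left out (4 without clone 1 and 10 without clone 2, against 25.9% and 31.7% of tested probe sets). Members at least 1.5-fold lower on all (4, against 3.03% of tested probe sets) became 10 with median centring (against 4.56%). The count was 3 with values as deposited (3.56%), 3 with the spiked controls (3.69%) and 3 with probe sets averaged within genes. It was 5 without _x_at probe sets, 8 with the dimmest strong probe set and 4 to 17 with 1 array left out. Counts of 1.5-fold higher and of 3-fold members were 0 in every run.

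limma called 0 probe sets, 435 with a floor of 64 (430 lower, 5 higher) and 1326 with no filter, where many values sit at the floor with no spread, and 0 with any 1 array left out. It called 0 members in every run. The medians over members and large minus small subunit kept their sign in every run. Among the 32 named members, 36 of 371 values under an alternative had the opposite sign, in 13 genes, RPS15, RPL7L1, RPL22, RPL37A, RPL38 and RPS27 among them. Against their SD over arrays, 72 values moved by more and 299 did not. Many of the 299 could not have done so. Leaving out 1 of 3 arrays cannot shift a mean by its SD, and several settings leave a gene's value unchanged. The 299 are therefore no measure of stability. The cause of these shifts was not tested. No paired analysis was possible because pLKO is a single array without a replicate number. Dim genes, clone 3 above all, are limited by signal over background.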
